A study of Mus musculus with 29 samples.

Results

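The TGF-beta pathway genes described here are 10 mouse genes: the ligands Tgfb1, Tgfb2 and Tgfb3, the receptors Tgfbr1 and Tgfbr2, the signal carriers Smad2, Smad3 and Smad4, and the inhibitors Smad7 and Skil. They were chosen by name from the 18240 genes of the deposited table, because Tgfbr2 and Smad3 lay on opposite sides of wild type in an earlier reading of the same libraries. All 10 were in the table and passed the filter on low values. The libraries are bulk RNA sequencing of prefrontal cortex from C57BL/6J mice of both sexes at postnatal day 40. Mice heterozygous for the K228E allele of Tbr1 (Tbr1+/K228E, HT) were given fluoxetine (8 libraries), lithium (7 libraries) or vehicle (6 libraries), and wild-type mice (WT) were given vehicle (8 libraries). All WT libraries are from vehicle mice, so each drug was compared with vehicle within HT. Neither the amount of each drug nor how and for how long it was given is stated in the labels. TBR1 is a T-box transcription factor of cortical glutamatergic neurons, fluoxetine is a serotonin reuptake inhibitor, and lithium is a mood stabiliser.

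TGF-beta ligands are secreted in a latent form and, once released, bind the type II receptor TGFBR2, which recruits and phosphorylates the type I receptor TGFBR1. TGFBR1 phosphorylates SMAD2 and SMAD3, which join SMAD4 and enter the nucleus. SMAD7 blocks the activated receptor and SKIL (SnoN) represses Smad target genes, and both are themselves induced by the pathway. In brain the pathway is best known for its part in microglial identity, in blood vessel integrity and in the response of astrocytes and neurons to injury.

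Tgfbr2 and Smad3, on which the results turn, both lie on the minus strand of chromosome 9. In GRCm38, Tgfbr2 (ENSMUSG00000032440) spans chr9:116084293-116175360 and Smad3 (ENSMUSG00000032402) spans chr9:63646767-63757994, and both are annotated as protein coding. Their promoters are shown to give the sequence around the annotated start of the 2 genes named in the choice. RefSeq windows of 300 bases for GRCm38.p6, 250 before and 50 after the start site, are printed 5′ to 3′ on the gene's strand, chr9:116175314-116175613 for Tgfbr2 and chr9:63757945-63758244 for Smad3. Capitals mark a T-box core (AGGTGT, the motif bound by T-box factors) or a Smad-binding element (CAGAC).
Tgfbr2: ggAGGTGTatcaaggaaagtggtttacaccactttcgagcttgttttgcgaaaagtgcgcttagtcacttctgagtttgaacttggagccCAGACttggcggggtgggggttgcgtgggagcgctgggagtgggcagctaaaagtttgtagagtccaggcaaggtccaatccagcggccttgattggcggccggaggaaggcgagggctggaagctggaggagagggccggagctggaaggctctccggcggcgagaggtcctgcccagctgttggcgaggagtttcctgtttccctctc
Smad3: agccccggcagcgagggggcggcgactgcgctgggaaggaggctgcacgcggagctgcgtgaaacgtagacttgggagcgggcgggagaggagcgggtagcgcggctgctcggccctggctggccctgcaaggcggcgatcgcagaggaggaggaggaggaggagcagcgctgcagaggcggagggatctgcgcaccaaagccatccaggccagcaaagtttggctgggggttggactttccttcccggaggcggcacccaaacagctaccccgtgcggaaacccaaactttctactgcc
The Tgfbr2 window held 1 T-box core, starting at -248 from the start site, and 1 Smad-binding element at -160. The Smad3 window held neither on either strand, nor the palindrome GTCTAGAC. Of 32851 windows of the same length, 13.7% held a T-box core on either strand, 49.6% held CAGAC and 0.213% held GTCTAGAC. The windows differed in base composition, with 15 CpG and 59% G or C for Tgfbr2 and 25 CpG and 67.7% G or C for Smad3. RefSeq windows also matched Tgfb1, Tgfb2 and Tgfbr1 (2 windows). Tgfb2 held CAGAC at -221 and -204, and 1 Tgfbr1 window held it at -203. Tgfb3, Smad2, Smad4, Smad7 and Skil had no match.

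The recovered reads summed to between 22.81 M and 31.71 M per library. Values below are normalised read counts, the reads of a gene divided by 1 size factor per library. Markers of cortical excitatory neurons were high in every library (Slc17a7 at 32387 or more, Neurod6 at 1390 or more), and markers of vessels (Cldn5), microglia (P2ry12) and astrocytes (Aldh1l1) were also present in every library, at 685.2, 777.7 and 1517 or more. Tbr1 averaged 4159 ± 589.6 in HT fluoxetine, 4425 ± 321.4 in HT lithium, 4067 ± 392.1 in HT vehicle and 2866 ± 445.1 in WT vehicle (SD, n = 8, 7, 6 and 8), and the table does not tell the alleles apart. The mean of 13 striatal or of 7 olfactory markers lay more than 1 (log2) above the median library in 13 of the 29 libraries, spread unevenly over all 4 genotype and treatment groups, and results are also given without them where they move. They include HT fluoxetine female 1, 2 and 3 and male 1 and 2, and WT vehicle female 1 and 3 and male 2 and 3. Without them 16 libraries remain, with female 4 as the only female library of HT fluoxetine.

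Tgfbr2, the type II receptor gene, was lower in HT than in WT, whichever agent the HT mice had received. Its count ran from 473.5 over a median of 517.1 to 528.7 in HT fluoxetine, from 490.5 over 504.2 to 538.6 in HT lithium, from 481.5 over 506.4 to 557.3 in HT vehicle, and from 535.5 over 582.8 to 636.5 in WT vehicle. The fluoxetine libraries did not overlap WT, and 6 of 7 lithium and 5 of 6 HT vehicle libraries lay below all WT libraries, 19 of 21 HT libraries together. Groups that do not overlap made up 0.0615% of all tested genes for HT fluoxetine and WT, 0.442% for HT lithium and WT, and 0.336% for HT vehicle and WT. The means were 508.1 ± 22.2 in HT fluoxetine (SD, n = 8), 511.1 ± 17.8 in HT lithium (n = 7), 508.9 ± 26.3 in HT vehicle (n = 6) and 585.1 ± 36.4 in WT vehicle (n = 8). The log2 difference from WT, on the log2(value + 1) scale with its standard error, was -0.20 ± 0.040 for HT fluoxetine, -0.19 ± 0.041 for HT lithium and -0.20 ± 0.043 for HT vehicle. Without the 13 libraries with high striatal or olfactory markers it was -0.31 for HT fluoxetine, -0.22 for HT lithium and -0.27 for HT vehicle. The WT libraries kept there were at 555.7, 619.3, 616.1 and 636.5, and include the highest of the group. Whether the larger differences reflect the dissection or the libraries kept was not tested. These 3 differences share the 8 WT libraries, chose the gene, and are therefore described without a test. In bulk tissue, fewer cells of a type and less RNA per cell cannot be told apart.

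**Figure D1:**
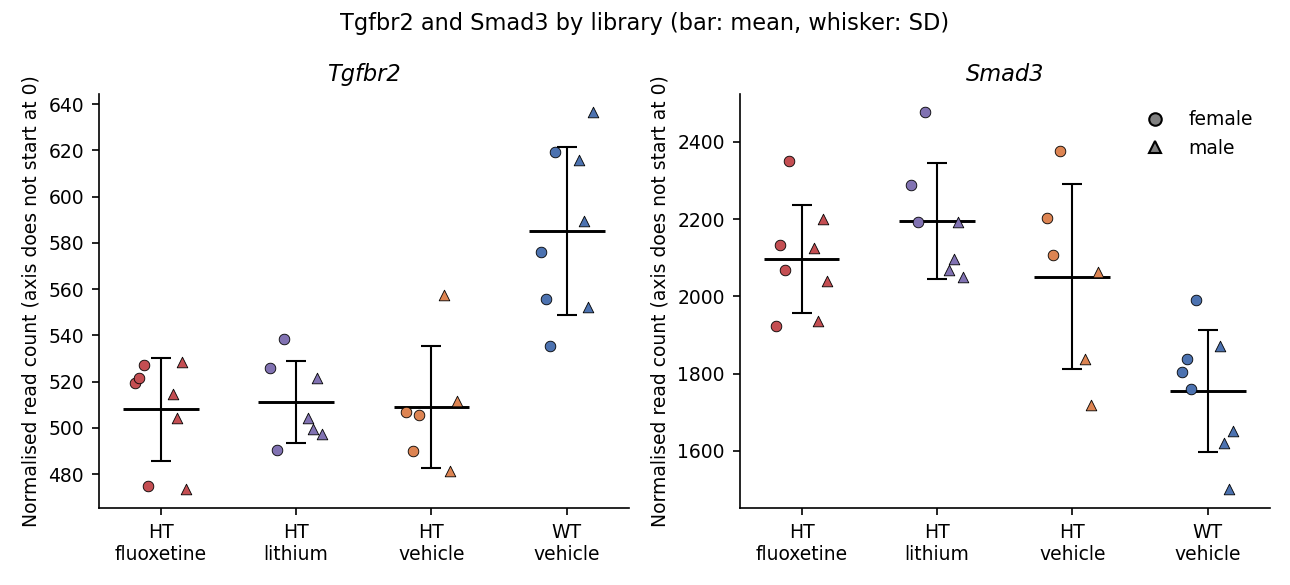
Normalised read count of Tgfbr2 (left) and Smad3 (right) in each of the 29 libraries, by genotype and treatment group. Circles are female and triangles male libraries, bars are means and whiskers SD. Tgfbr2 is below all WT libraries in 19 of 21 HT libraries, and Smad3 is above all WT libraries in 17 of 21.

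Smad3, which encodes a receptor-activated Smad that binds DNA, was higher in HT than in WT. Its count ran from 1923 over a median of 2096 to 2350 in HT fluoxetine, from 2051 over 2192 to 2476 in HT lithium, from 1720 over 2086 to 2377 in HT vehicle, and from 1501 over 1783 to 1991 in WT vehicle. All 7 lithium libraries lay above all WT libraries, as did 6 of 8 fluoxetine and 4 of 6 HT vehicle libraries, 17 of 21 together. Over all tested genes, HT lithium and WT did not overlap for 0.442%. The group means were 2097 ± 139.5 in HT fluoxetine (SD, n = 8), 2195 ± 149.4 in HT lithium (n = 7), 2051 ± 240.0 in HT vehicle (n = 6) and 1755 ± 156.9 in WT vehicle (n = 8). The log2 difference from WT was 0.26 ± 0.047 for HT fluoxetine, 0.33 ± 0.049 for HT lithium and 0.22 ± 0.051 for HT vehicle, again described without a test. The HT vehicle libraries were the most variable, and the 2 HT vehicle libraries that lay within the WT range were both male.

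The direction of both genes was the same in each sex. The female and male values are parts of the differences that chose the genes, so this is a description. Tgfbr2 in females averaged 510.7 in HT fluoxetine, 518.4 in HT lithium, 501.0 in HT vehicle and 571.6 in WT, and in males 505.4 in HT fluoxetine, 505.7 in HT lithium, 516.8 in HT vehicle and 598.5 in WT. Smad3 in females averaged 2119 in HT fluoxetine, 2318 in HT lithium, 2229 in HT vehicle and 1848 in WT, and in males 2076 in HT fluoxetine, 2102 in HT lithium, 1873 in HT vehicle and 1661 in WT. Each of these means rests on 3 or 4 libraries. The test of whether the HT vehicle minus WT difference itself differed between females and males gave 0.024 ± 0.086 (log2) for Tgfbr2 and 0.096 ± 0.10 for Smad3, with limma adjusted p of 0.975 and 0.905. For all 10 genes this test called 0, the same as over all genes (0%), and at an unadjusted p under 0.05 it passed 0 of the 10 genes and 5.6% of all genes.

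Within HT, no drug difference was detected for Tgfbr2. Fluoxetine minus vehicle was -0.0022 (log2), with a 95% interval of -0.090 to 0.086 and a limma adjusted p of 0.996. Lithium minus vehicle was 0.0095, with an interval of -0.082 to 0.10 and an adjusted p of 0.956. For Smad3, lithium minus vehicle was 0.11 with an interval of 0.0040 to 0.22 and an adjusted p of 0.428, and fluoxetine minus vehicle was 0.037 with an interval of -0.068 to 0.14 and an adjusted p of 0.881. Lithium minus fluoxetine was 0.012 (-0.073 to 0.097) for Tgfbr2 and 0.076 (-0.026 to 0.18) for Smad3. Lithium and fluoxetine are compared with the same 6 HT vehicle libraries, so those differences are not independent of each other.

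**Figure D2:**
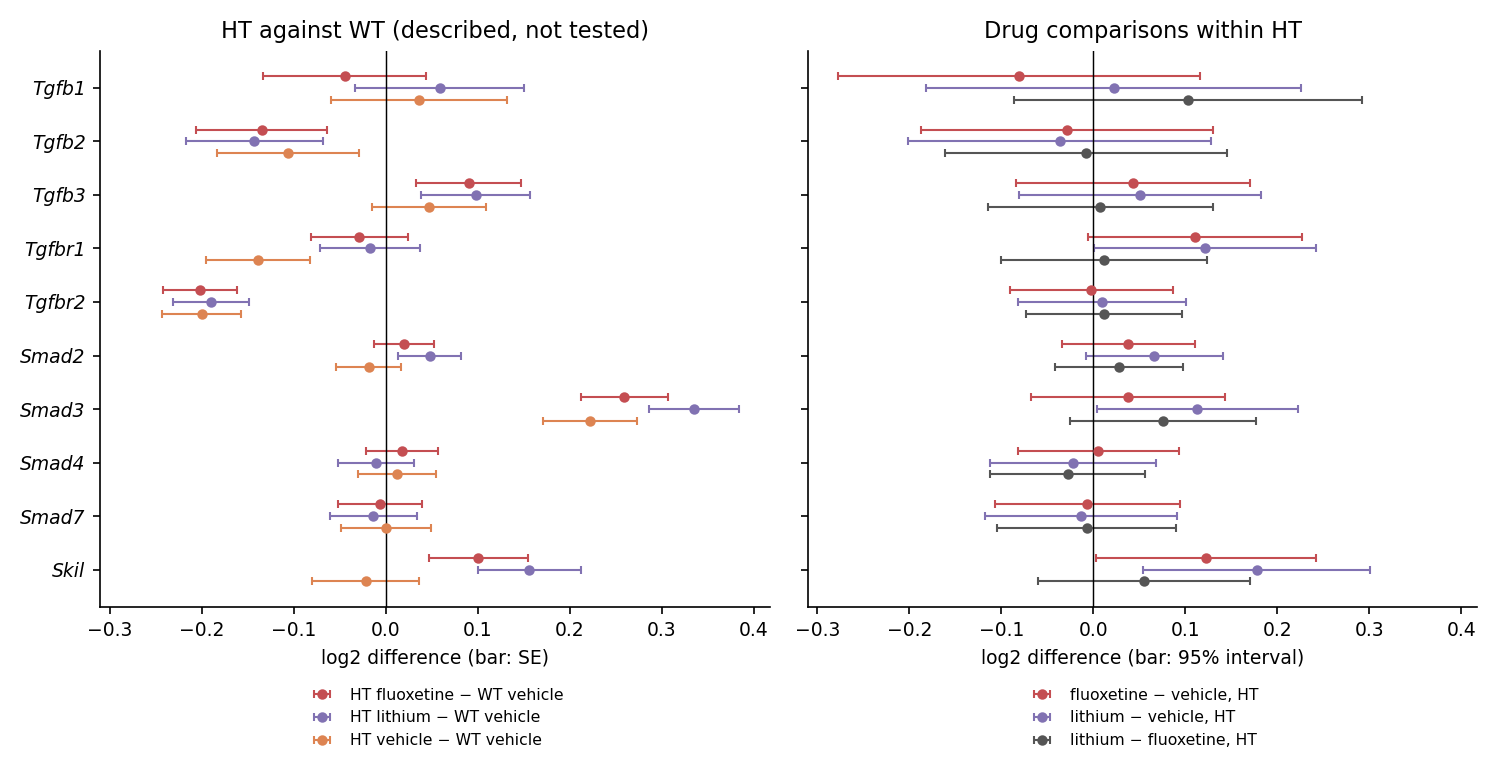
Log2 difference of each of the 10 genes between HT groups and WT vehicle (left, bars are standard errors, no test) and between treatments within HT (right, bars are 95% intervals before adjustment for the number of genes). Tgfbr2 lies near -0.20 and Smad3 between 0.22 and 0.33 on the left, and no difference on the right passed the adjusted threshold.

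Smad3 also had a higher mean in females than in males, by 0.14 ± 0.036 (log2, SE) averaged over the 4 groups. The difference was 0.027 in HT fluoxetine, 0.14 in HT lithium, 0.25 in HT vehicle and 0.16 in WT vehicle, positive in all 4. Its unadjusted limma p was 0.00041 and its adjusted p was 0.10, so it missed the threshold of 0.05. It passed in DESeq2 on recovered reads and with either vascular and microglial or excitatory neuron marker means as covariates, and when HT fluoxetine female 1, HT vehicle male 3 or WT vehicle male 1 was left out (adjusted p of 0.0428, 0.0367 and 0.0405). Over all alternatives its adjusted p ran from 0.0202 to 0.361. Tgfbr1 was 0.095 ± 0.039 higher in females (adjusted p = 0.507), and Tgfbr2 differed by -0.015 (adjusted p = 0.950). By limma, 0 of the 10 genes passed, against 0.257% of all tested genes, and at an unadjusted p under 0.05 it was 2 of 10 against 8.18%.

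The ligand genes lay closer to WT than Tgfbr2 and Smad3 did. Tgfb1 averaged 136.2 ± 18.5 in HT fluoxetine, 145.0 ± 12.1 in HT lithium, 143.0 ± 6.8 in HT vehicle and 140.7 ± 21.3 in WT vehicle (SD, n = 8, 7, 6 and 8 here and below), and every HT mean lay within the WT range of 109.7 to 172.5. Tgfb2 averaged 252.3 ± 24.0 in HT fluoxetine, 254.6 ± 35.5 in HT lithium, 257.2 ± 22.1 in HT vehicle and 277.6 ± 30.8 in WT vehicle. Its log2 difference from WT was -0.14 for HT fluoxetine, -0.14 for HT lithium and -0.11 for HT vehicle, each less than 2 standard errors. Tgfb3 averaged 500.0 ± 37.6 in HT fluoxetine, 500.4 ± 45.2 in HT lithium, 485.8 ± 45.6 in HT vehicle and 469.3 ± 30.0 in WT vehicle. Its log2 difference from WT was 0.090 ± 0.057 for HT fluoxetine, 0.098 ± 0.060 for HT lithium and 0.047 ± 0.062 for HT vehicle. The 3 ligand genes overlapped WT in every HT group. Of the 21 HT libraries, 8 lay below all WT libraries for Tgfb2 and 0 above. For Tgfb3, 8 lay above all WT libraries and 0 below. Among the ligand genes, exons of Tgfb2 and of Tgfb3 overlap exons of an annotated noncoding gene on the opposite strand. The strand setting of the counting is not given in the sources used here. The protein-coding Ttll5 also overlaps Tgfb3 on the opposite strand, but their exons do not overlap.

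Tgfbr1, the type I receptor gene, had its lowest mean in HT vehicle. It averaged 874.5 ± 96.2 in HT fluoxetine, 875.9 ± 44.5 in HT lithium, 807.1 ± 51.4 in HT vehicle and 890.2 ± 77.0 in WT vehicle. In HT vehicle, 3 of 6 libraries lay below all WT libraries, while 1 of 8 fluoxetine and 0 of 7 lithium libraries did. The log2 difference from WT was -0.029 ± 0.052 for HT fluoxetine, -0.018 ± 0.055 for HT lithium and -0.14 ± 0.057 for HT vehicle. Fluoxetine minus vehicle was 0.11 (interval -0.0062 to 0.23, limma adjusted p = 0.636) and lithium minus vehicle was 0.12 (interval 0.0010 to 0.24, adjusted p = 0.436), neither past the threshold.

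The remaining Smad genes were close to each other in all groups. Smad2, the other receptor-activated Smad, averaged 966.0 ± 42.5 in HT fluoxetine, 985.3 ± 34.7 in HT lithium, 940.7 ± 39.7 in HT vehicle and 953.2 ± 42.3 in WT vehicle. Smad4, the shared partner Smad, averaged 942.2 ± 72.8 in HT fluoxetine, 923.2 ± 20.1 in HT lithium, 936.9 ± 44.6 in HT vehicle and 929.2 ± 40.0 in WT vehicle. Both overlapped WT in every HT group, and their log2 differences from WT lay between -0.019 and 0.047.

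Smad7, the inhibitory Smad, had nearly the same mean in every group, 627.5 ± 38.8 in HT fluoxetine, 625.1 ± 35.9 in HT lithium, 630.2 ± 36.3 in HT vehicle and 630.1 ± 35.6 in WT vehicle. Its log2 difference from WT was -0.0063 ± 0.045 for HT fluoxetine, -0.013 ± 0.047 for HT lithium and 0.00040 ± 0.049 for HT vehicle. Skil, the gene of the Smad co-repressor, had the largest lithium difference of the 10 genes. It ran from 1996 over a median of 2276 to 2417 in HT lithium and from 1864 over 1974 to 2126 in HT vehicle, so that 6 of 7 lithium libraries lay above the highest vehicle library. The groups overlapped. Lithium minus vehicle was 0.18 (interval 0.054 to 0.30, unadjusted p = 0.0067, limma adjusted p = 0.297), and fluoxetine minus vehicle was 0.12 (interval 0.0027 to 0.24, adjusted p = 0.631). Relative to WT, Skil was 0.10 ± 0.054 in HT fluoxetine, 0.16 ± 0.056 in HT lithium and -0.022 ± 0.058 in HT vehicle (log2).

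**Figure D3:**
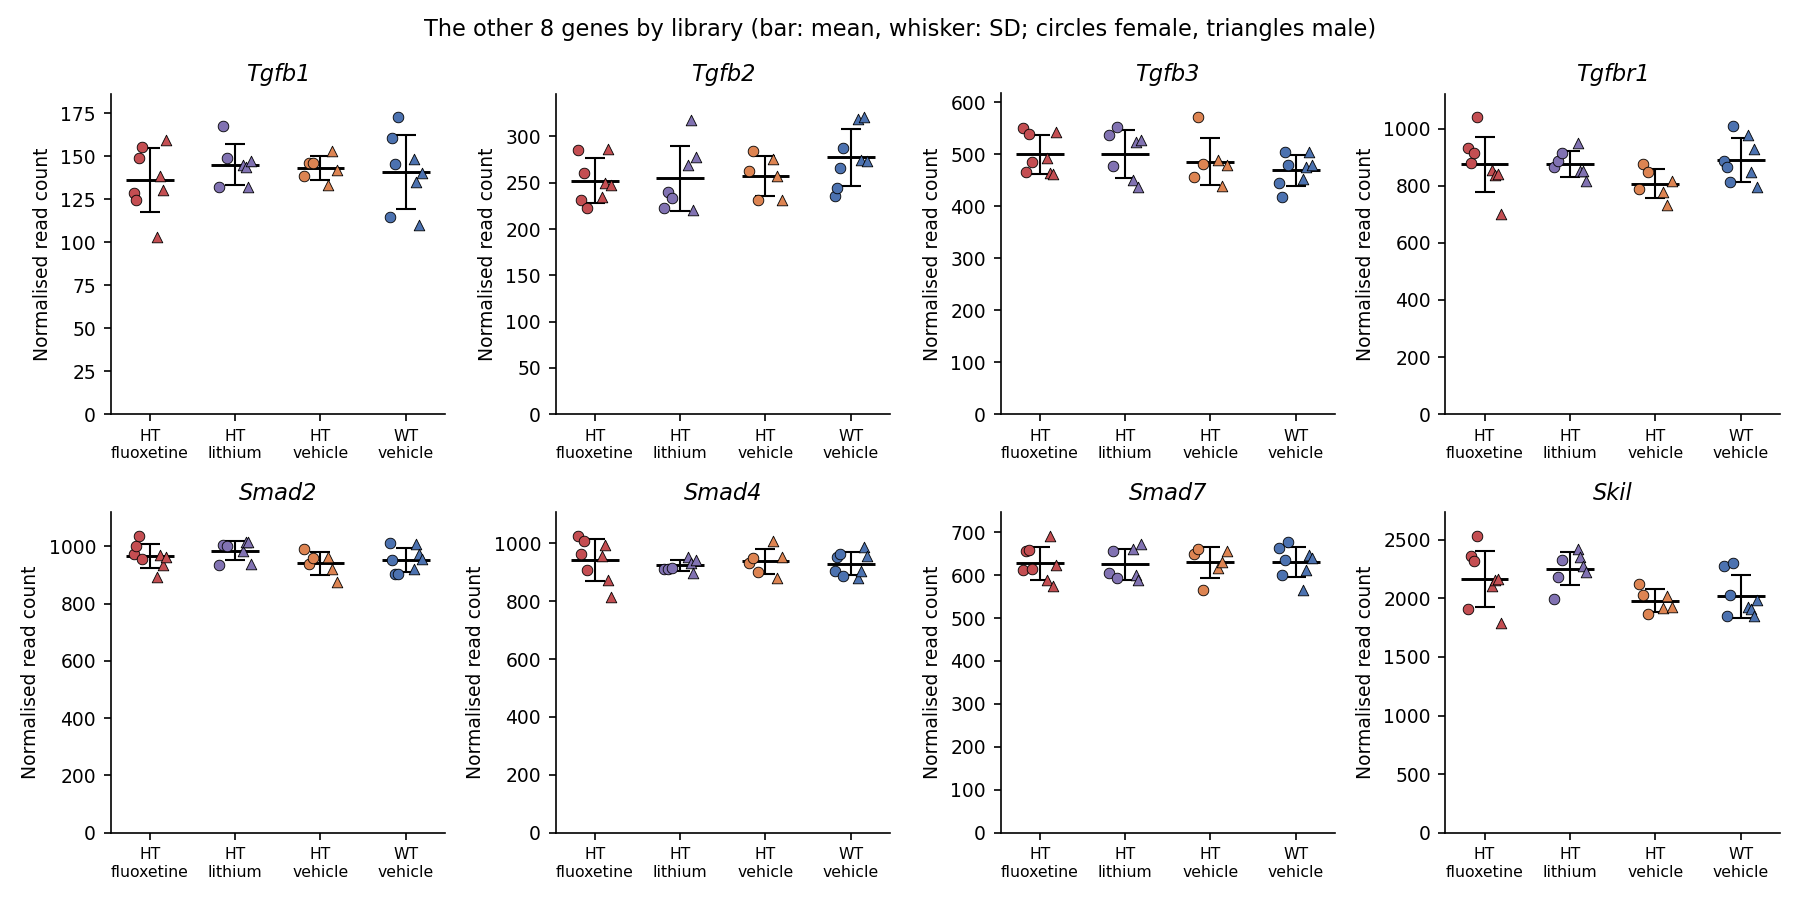
Normalised read count of the other 8 genes in each library, by genotype and treatment group, with axes starting at 0. Circles are female and triangles male libraries, bars are means and whiskers SD. The groups overlap for every gene shown, and Skil is higher in 6 of 7 HT lithium libraries than in any HT vehicle library.

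Limma called 0 of the 10 genes between fluoxetine and vehicle, between lithium and vehicle and between lithium and fluoxetine, and 0% of all tested genes in each. At an unadjusted p under 0.05 it was 1 of 10 against 7.81% of all genes for fluoxetine (Skil), 3 of 10 against 11.4% for lithium (Skil, Smad3 and Tgfbr1), and 0 of 10 against 3.5% for lithium minus fluoxetine. DESeq2 on the recovered reads called 2, 32 and 2 genes in the whole table, and edgeR called 0 in each; neither called any of the 10. The labels do not say that libraries come from separate animals, so these p-values measure the spread between libraries.

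Compared per kilobase of annotated exon, Smad3 was the most abundant of the 10 genes, at 363.9 ± 42.6 (SD over 29 libraries), followed by Smad4 at 251.3 ± 12.7 and Skil at 217.4 ± 20.8. Tgfb3 (144.5 ± 11.7), Smad7 (138.9 ± 7.7) and Tgfbr1 (132.4 ± 11.5) came next, and their ranges over the libraries overlapped. Smad2 followed at 109.5 ± 4.7, and its range overlapped that of Tgfbr1. The ranges of Smad3 and Smad4 overlapped as well, as did those of Smad4 and Skil. Tgfbr2 (64.8 ± 5.2), Tgfb2 (45.0 ± 5.0) and Tgfb1 (27.96 ± 3.14) were the lowest. Annotated exon length includes exons of all isoforms, which can set a gene with long alternative exons too low.

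Most markers of several cell types had a lower or a higher mean in HT than in WT in the same libraries, and few passed the test. Of all tested genes, limma called 0.19% for HT fluoxetine, 1.9% for HT lithium (1.33% higher, 0.57% lower) and 0.207% for HT vehicle against WT. The median log2 difference over all genes was -0.0026 for HT fluoxetine, -0.0046 for HT lithium and 0.00011 for HT vehicle. All 10 fibroblast and meninges markers had a lower mean in each HT group than in WT vehicle, with a median log2 difference of -0.14 for HT fluoxetine, -0.24 for HT lithium and -0.20 for HT vehicle, and 0 passed. Of 16 endothelial and mural markers, 16 had a lower mean in HT fluoxetine (median -0.086), 11 in HT lithium (median -0.078, 3 passed) and 16 in HT vehicle (median -0.11). Of 14 microglial markers, 14 had a lower mean in HT fluoxetine (median -0.061), 13 in HT lithium (median -0.070) and 13 in HT vehicle (median -0.10), and 0 passed. Of 10 astrocyte markers, 8 had a lower mean in HT fluoxetine, 7 in HT lithium (2 passed) and 8 in HT vehicle, where 1 passed as lower and 1 as higher. All 6 excitatory neuron markers had a higher mean in each HT group, with a median of 0.10 for HT fluoxetine, 0.18 for HT lithium (1 passed) and 0.095 for HT vehicle. Other lists had no common direction. All 8 oligodendrocyte markers had a lower mean in HT vehicle (median -0.16) but a higher one in HT fluoxetine (0.046) and HT lithium (0.051). Of 7 inhibitory neuron markers, 4 had a higher mean in HT fluoxetine, 3 in HT lithium and 4 in HT vehicle. None of these 2 lists' genes passed. The median of the 13 striatal markers was 0.58 for HT fluoxetine, 0.072 for HT lithium and -0.23 for HT vehicle, and that of the 7 olfactory markers was -0.48, -1.30 and -0.068 in HT fluoxetine, HT lithium and HT vehicle, with 0 passed in either list. The mean of the endothelial and mural markers ran from -0.089 to 0.065 in HT fluoxetine, from -0.050 to 0.032 in HT lithium, from -0.11 to 0.040 in HT vehicle and from -0.015 to 0.31 in WT vehicle (log2 around the mean of all libraries). In WT vehicle, female 4 (0.31) and male 1 (0.23) stood well above the next library, female 1 at 0.066. The mean of the excitatory neuron markers ran from -0.29 to 0.20 in HT fluoxetine, from -0.053 to 0.27 in HT lithium, from -0.13 to 0.16 in HT vehicle and from -0.43 to 0.082 in WT vehicle. With vascular and microglial marker means as covariates, the Tgfbr2 difference from WT was -0.15 for HT fluoxetine, -0.16 for HT lithium and -0.14 for HT vehicle, and the Smad3 difference was 0.33 for HT fluoxetine, 0.39 for HT lithium and 0.31 for HT vehicle. With the excitatory neuron mean as covariate, chosen after the data were seen, Tgfbr2 was at -0.22 in each HT group, and Smad3 was at 0.21 in HT fluoxetine, 0.24 in HT lithium and 0.17 in HT vehicle. Beyond these fits, the part of cell composition in the differences was not tested.

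Within groups, Smad3 correlated with the excitatory neuron markers. Over deviations of the 29 libraries from their own group means, Pearson's r was 0.674 (permutation p = 0.0018, adjusted over 9 relations 0.016) and Spearman's rho was 0.626 (permutation p = 0.0027, adjusted 0.025), and r was 0.568 without the 2 libraries farthest from the median. Smad3 also correlated with the endothelial and mural markers, with r = 0.536 (permutation p = 0.0091, adjusted 0.041) and rho = 0.495 (permutation p = 0.011, adjusted 0.051), but r fell to 0.334 without 2 libraries, so this relation rests in part on them. For Tgfbr2 and the endothelial and mural markers r was 0.474 (permutation p = 0.047, adjusted 0.142) and rho was 0.471 (permutation p = 0.019, adjusted 0.056), and r was 0.328 without 2 libraries. The relation of Tgfbr2 with Smad3 within groups did not pass, with r = 0.383 (permutation p = 0.114, adjusted 0.258), rho = 0.446 (permutation p = 0.048, adjusted 0.109) and r = 0.555 without 2 libraries. The other 5 relations, with microglial and astrocyte markers and of Tgfbr2 with excitatory neuron markers, had adjusted permutation p of 0.264 or more by r. These relations were chosen after the data were seen, and both values of a library in a relation share its depth and size factor.

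**Figure D4:**
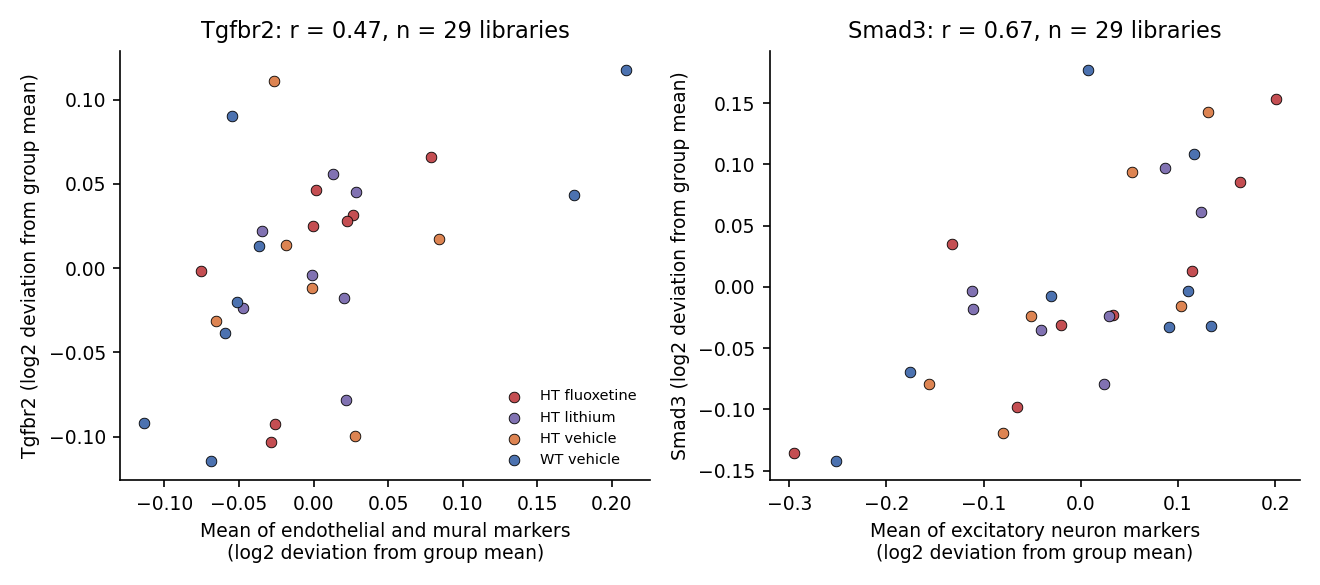
Deviation of Tgfbr2 from its group mean against that of the endothelial and mural marker mean (left), and of Smad3 against the excitatory neuron marker mean (right), on the log2 scale, 1 point per library, 29 libraries. Pearson's r is 0.47 on the left and 0.67 on the right.

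The genes whose within-group deviations were most like those of Smad3, among 13828 genes with a mean of at least 50, were Hrh1 (r = 0.834), Lsm11 (0.827), Smarca2 (0.808), Pdp1 (0.802) and Man1c1 (0.79), and the most unlike were Ddx19a (-0.85), Jun (-0.798) and Fmc1 (-0.794). For Tgfbr2 they were Gm44769 (0.718), Caskin1 (0.717), Arhgef26 (0.703), Slc19a3 (0.684) and Tpcn1 (0.683), and the most unlike were Ogfod3 (-0.752), Slc27a2 (-0.69) and 4921524J17Rik (-0.669). All of these r are over 29 libraries, were picked as the extremes of many genes, and are given as a description.

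Around the 10 genes, 91 other genes of the superfamily, its regulators and its targets were counted by role. Between HT vehicle and WT vehicle, 1 of 91 passed the limma threshold, against 0.207% of all tested genes, and the median log2 difference was -0.044 over the 91 genes and 0.00011 over all genes. The gene was Bhlhe40, a TGF-beta-inducible transcriptional repressor gene that neurons also express, higher by 0.27 ± 0.057 (adjusted p = 0.0401). Its count ran from 3282 over a median of 4153 to 5272 in HT vehicle and from 3182 over 3267 to 3947 in WT vehicle, so the groups overlapped. The call was lost in 13 of 29 fits without 1 library, with the highest adjusted p (0.178) without HT vehicle male 3. Vasn, which encodes a TGF-beta-binding membrane protein, was at 0.33 ± 0.079 (adjusted p = 0.0624), and Id4, a Smad-responsive inhibitor of differentiation, was at -0.21 ± 0.057 (adjusted p = 0.0995), neither past the threshold.

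By role, 56 of the 91 genes had a lower mean in HT vehicle than in WT vehicle, and 35 a higher one. Of 11 latency and activation genes 6 had a lower mean in HT vehicle and 0 passed (median -0.048), with Thbs1, an activator of latent TGF-beta, at -0.45 ± 0.17 and Furin, the protease that cleaves the precursors, at 0.17 ± 0.054. The 13 genes listed as other ligands include the protease gene Bmp1. Of these 13, 9 had a lower mean and 0 passed (median -0.093), with Bmp2 at 0.30 ± 0.091 and Inhbb at 0.24 ± 0.084. Of 9 other receptors 5 had a lower mean and 0 passed (median -0.057). Of 16 Smad regulators 8 had a lower mean and 0 passed (median 0.0013), and of 4 other Smads 2 had a lower mean and 0 passed (median -0.029). Of 5 coreceptors 4 had a lower mean (median -0.044), of 9 extracellular antagonists 4 had a lower mean (median 0.048), and all 4 genes of the Tak1 branch had a lower mean (median -0.036), and 0 passed in these 3 groups. Of 20 target genes 14 had a lower mean (median -0.082) and 1, Bhlhe40, passed. Col1a1, Col1a2 and Col3a1 are counted both here, as lower, and among the fibroblast and meninges markers above.

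**Figure D5:**
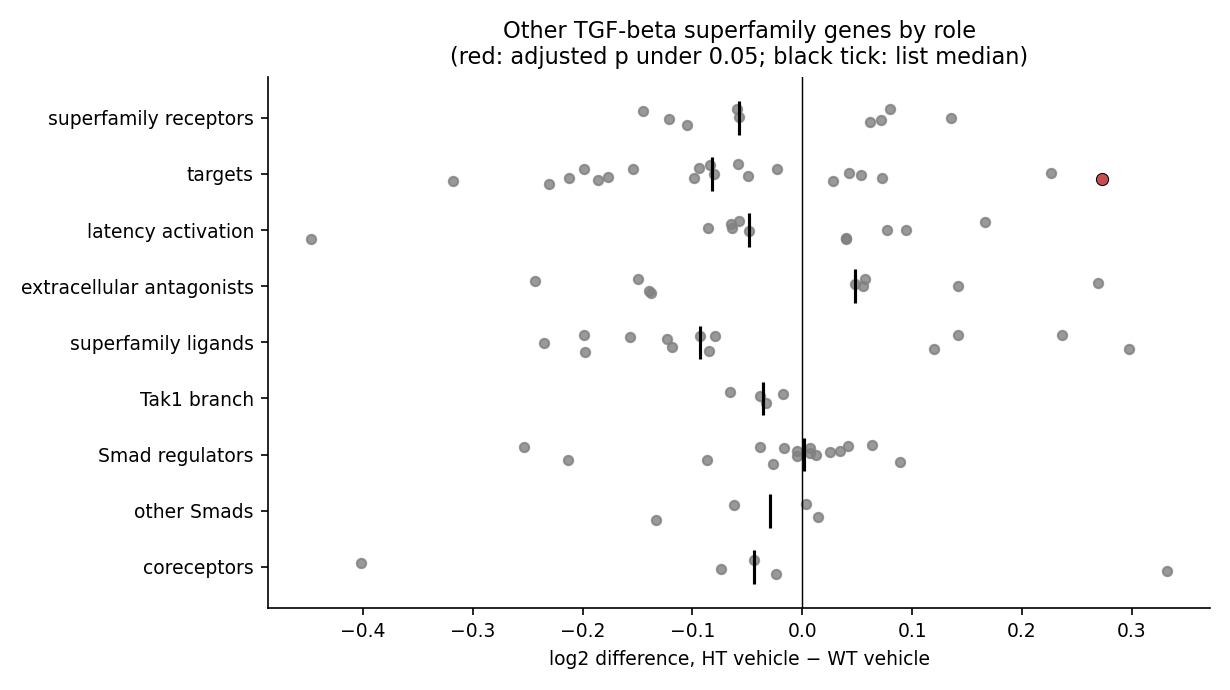
Log2 difference between HT vehicle and WT vehicle for 91 other genes of the TGF-beta superfamily, its regulators and its targets, 1 point per gene, in rows by role. The black tick is the median of each row and the red point is Bhlhe40, the gene past the adjusted threshold, at 0.27.

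Between HT fluoxetine and WT vehicle, 1 of 91 passed, against 0.19% of all tested genes, again Bhlhe40 (0.28 ± 0.053, adjusted p = 0.0188). That call was lost without HT fluoxetine female 4, HT fluoxetine male 3 or WT vehicle female 2 (adjusted p of 0.0681, 0.0510 and 0.0611). Between HT lithium and WT vehicle, 5 of 91 passed, against 1.9% of all tested genes. Of all tested genes, 1.33% were higher and 0.57% lower. Higher in HT lithium were Bhlhe40 (0.40 ± 0.055, adjusted p = 0.00033), Klf10, an immediate TGF-beta target gene (0.30 ± 0.065, adjusted p = 0.018), and Chrd, which encodes the BMP antagonist chordin (0.31 ± 0.079, adjusted p = 0.0377). Lower were the BMP ligand genes Bmp7 (-0.27 ± 0.070, adjusted p = 0.045) and Bmp6 (-0.34 ± 0.091, adjusted p = 0.0497). Bmp7 averaged 487.2 ± 59.5 in HT lithium and 589.4 ± 32.7 in WT vehicle, and Bmp6 averaged 362.7 ± 52.8 in HT lithium and 461.7 ± 35.6 in WT vehicle. Most target genes did not go with Bhlhe40 and Klf10. In HT lithium 14 of the 20 had a lower mean than in WT (median -0.071 against -0.0046 over all genes). In HT fluoxetine it was 11 of the 20 (median -0.019). Of the 9 extracellular antagonists, which include Chrd, 5 had a lower mean in HT lithium (median -0.087).

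Without the 13 libraries with high striatal or olfactory markers, 0 of the 91 genes passed in any of the 3 comparisons with WT, and Bhlhe40 was at 0.40 for HT fluoxetine, 0.43 for HT lithium and 0.30 for HT vehicle (adjusted p of 0.335, 0.0889 and 0.469). The lithium call of Bhlhe40 held without each single library, and the other lithium calls did not. Klf10 was lost without HT lithium female 2 or 3 (adjusted p of 0.0572 and 0.0700), Chrd in 10 of 29 such fits (up to 0.0995, without WT vehicle male 3), and Bmp7 and Bmp6 in 18 and 19 of 29 (up to 0.154 and 0.178, both without HT lithium female 3). With the excitatory neuron mean as covariate Klf10 was at 0.17, Chrd at 0.13, Bmp7 at -0.15 and Bmp6 at -0.17 (adjusted p of 0.296, 0.498, 0.489 and 0.544), and with the striatal and olfactory means as covariates the 4 genes also missed the threshold. These 3 comparisons share the WT libraries. Within HT, 0 of 91 genes passed for fluoxetine, lithium or lithium minus fluoxetine, as for all genes (0%). The smallest p for lithium were those of Lrrc32, an anchor of latent TGF-beta (-0.30 ± 0.088, adjusted p = 0.259), Bmp1, a procollagen protease gene (-0.19 ± 0.058, adjusted p = 0.261), and Ltbp3, a latent TGF-beta binding protein gene (-0.28 ± 0.090, adjusted p = 0.276). For fluoxetine they were Id4 (0.20 ± 0.057, adjusted p = 0.424) and Bmp1 (-0.19 ± 0.056, adjusted p = 0.425). Of the 11 latency and activation genes 9 had a lower mean with lithium than with vehicle, with a median of -0.11 against -0.0037 over all genes. Of the 16 Smad regulators 13 had a higher mean with lithium (median 0.051) and 13 with fluoxetine (median 0.037), and of the 20 target genes 18 had a higher mean with fluoxetine (median 0.055 against -0.0044 over all genes) and 11 with lithium (median 0.011). None of these genes passed in limma.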

How the data were processed

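Bulk RNA-seq libraries were made with a stranded mRNA kit, per the labels' protocols. Per the submitters' processing notes, the build was GRCm38 and Salmon 0.11.2, R 3.6.0 and DESeq2 1.19.11 were used, in unstated roles. The deposited signal, per the file's own values, is each gene's read count divided by 1 size factor per library: 100% of values were whole multiples of 1 step within 0.0001. Whole reads were recovered by that step in all 29 libraries. In 3 of them the step lay close to 1, at 1.006 and 0.990 in HT fluoxetine female 1 and 2 and 1.001 in HT fluoxetine male 3. Gene names and coordinates came from GENCODE annotation of GRCm38 (18227 of 18240 identifiers matched).

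Differences were tested with limma 3.58.1 in R 4.3.3 on log2(value + 1), with 1 mean per genotype, treatment and sex group, an intensity trend, two-sided, and Benjamini-Hochberg adjustment over the 17881 genes that reached 10 in 3 or more libraries (threshold 0.05). Female and male differences were averaged with equal weight. The scripts were tested on simulated data. Alternatives were quantile normalisation, other pseudocounts and filters, edgeR 4.0.16 and DESeq2 1.42.0 on recovered reads, the replicate block, marker covariates, and leaving out libraries. The 10 genes and all lists were chosen with earlier results of these data known. Of the lists, genes past the threshold were named, and otherwise up to 3 per list with the smallest p. Correlations used 100000 permutations.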

Additional observations from a re-analysis of the deposited data

Results flagged for a closer look

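No value of the 10 genes stood far enough from the rest of its genotype and treatment group to be listed: in 40 sets of libraries (10 genes in 4 groups), 0 had a highest or lowest library past the 95% critical value of Dixon's test, which chance passes in about 1 of 20 sets. The difference between HT vehicle and WT vehicle was not shown to differ between the sexes for any of the 10 genes.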

How the results depend on the processing

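Each result was recomputed under 12 other settings and 29 fits without 1 library. Tgfbr2 stayed lower and Smad3 higher in HT in all of them. The same HT and WT libraries chose these genes, so this describes the choice and is not independent support. Without the 13 libraries with high striatal or olfactory markers, Smad3 was at 0.28 for HT fluoxetine, 0.29 for HT lithium and 0.18 for HT vehicle (log2 against WT). Without 1 library the HT vehicle difference ran from -0.23 to -0.18 for Tgfbr2 and from 0.19 to 0.25 for Smad3. For sex, 1 of the 10 genes (Smad3) passed in DESeq2, with vascular and microglial covariates and with the excitatory neuron covariate, and 0 to 1 without 1 library. The drug comparisons and the sex difference of the genotype difference called 0 of the 10 genes in every setting. The count of 91 pathway genes between HT vehicle and WT vehicle (1) was 2 with the replicate block, 2 with vascular and microglial covariates, 3 in DESeq2, 0 without the 13 libraries and 0 to 3 without 1 library. Between HT fluoxetine and WT vehicle (1) it was 2 with the replicate block, 4 with striatal and olfactory covariates, 2 with vascular and microglial covariates, 2 in DESeq2, 0 without the 13 libraries and 0 to 2 without 1 library. Between HT lithium and WT vehicle (5) it was 9 with the replicate block, 1 with striatal and olfactory covariates, 1 with the excitatory neuron covariate, 9 in DESeq2, 0 without the 13 libraries and 1 to 8 without 1 library. Counts of all called genes between HT vehicle and WT vehicle (37) ran from 2 to 219, from 4 to 98 for HT fluoxetine (34), and from 1 to 722 for HT lithium (340). The cause was not tested, except that fewer libraries remain where libraries are left out. The replicate block and the pairing check used the numbers of the sample titles, which count the HT vehicle females 1 to 3 where the library names count them 2 to 4. These numbers did not pair the libraries: the median correlation of same-numbered libraries was -0.021 over 94 pairs, and 8 of 29 libraries correlated best with their own number. A gene at the depth of Tgfb1, with 91 to 185 reads per library, is limited in part by counting error.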
